A study of Mus musculus with 24 samples.

Results

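The 38 genes described here encode proteins of DNA replication, deoxynucleotide supply and mitosis, and they are 38 of the 55487 gene IDs in the deposited count table. They were taken by symbol, and all 38 symbols had a row. The cells were tumor-associated macrophages, sorted as CD45+ CD11b+ F4/80+ cells. They came from orthotopic MC38 tumors, grown from a colon carcinoma line of the mouse in C57BL/6J hosts. The tumors were either APC-WT or APC-KO, so the genotype is that of the implanted tumor line, and the labels name no change of Apc in the host macrophages. These macrophage libraries therefore hold no check of the deletion. There were 4 tumors, 2 of each genotype, with 6 libraries each and 24 libraries in all, and they are named APC-WT 1, APC-WT 2, APC-KO 1 and APC-KO 2 beside values. The labels give neither the age of the mice, nor the number of animals behind a tumor, nor whether cells were pooled, and they name no treatment. They call the 6 libraries replicates of one sample, so p-values between 2 tumors measure only the spread between libraries, which may be technical, and the genotype was compared on 2 tumor sums against 2.

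A cell that divides passes through a phase of DNA synthesis and then through mitosis, and each phase has its own transcripts. The MCM helicase is loaded on origins and opens the DNA, PCNA clamps the polymerase to it, and thymidylate synthase, thymidine kinase and ribonucleotide reductase supply the building blocks. Later in the cycle cyclin B and CDK1 start mitosis, the Aurora and Polo kinases build the spindle, kinetochore proteins attach chromosomes to it, and the anaphase-promoting complex ends it. Most differentiated macrophages are out of the cycle, but monocyte-derived and resident macrophages in inflamed tissue and tumors can divide, and Mki67 and Top2a are the usual markers of those that do. In bulk RNA, fewer cycling cells and less RNA per cycling cell cannot be told apart.

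Summed over 6 libraries, the tumors held 488977630 (APC-WT 1), 219243647 (APC-WT 2), 76507424 (APC-KO 1) and 91084172 (APC-KO 2) counts. The 38 genes took 4977 (Ccne1) to 61903 (Mcm6) counts each in APC-WT tumor 1 and 648 (Ccne1) to 6776 (Tubb5) in APC-KO tumor 1. Satellite-like loci held 1.32%, 7.08%, 37.9% and 38.5% of the counts in the same order of tumors, and counts also fell on genes that macrophages do not use. The background expected for a gene was therefore taken from 1974 olfactory and vomeronasal receptor genes, per kb of exon. It came to 0.751% and 5.05% of all counts in the APC-WT tumors and 17.6% and 17.9% in the APC-KO tumors. Levels are given as scaled CPM, the CPM over the counts of the expressed genes after TMM scaling. Expressed genes are the 3938 with a mean CPM of at least 10 and at least 10 times their expected background, and 8382 genes had that CPM and at least 3 times their background. Of the 38 genes, 15 passed the first pair of limits and 36 the second, all but Ccne1 and Cenpf. These sets are named below as genes at 10 times and at 3 times background, and the limits are set on the mean CPM of the 4 tumors. The 38 genes lay 19.8 to 716 times above their background in APC-WT tumor 1, 2.82 to 81.3 times in APC-WT tumor 2, 1.54 to 23.4 times in APC-KO tumor 1 and 1.86 to 38.3 times in APC-KO tumor 2. All 13 macrophage markers listed, among them those of the sort (Ptprc, Itgam and Adgre1), were above 3 times background in each tumor.

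To show what the transcripts share at their starts, 120 bases upstream of 6 of the genes are printed, from RefSeq annotation of GRCm38.p6, 5′ to 3′ and ending at the base before the transcript start. Capitals mark 3 motifs known from cell cycle promoters, on either strand. They are TTTGAA (the cell cycle gene homology region), CCAAT (bound by NF-Y) and an E2F site spelled TTTGGCGC, TTTCCCGC, TTTCGCGC or TTTGCCGC, and overlapping matches form 1 longer run. Mki67, Top2a, Cdk1 and Ccnb1 are shown as the mitotic genes with large differences between tumors of one genotype, Mcm6 as a licensing gene that was lower in the APC-KO tumors, and Tyms as the gene with the largest difference in the other direction. The windows lie at chr7:135716380-135716499 on the minus strand (Mki67), chr11:99024190-99024309 on the minus strand (Top2a), chr10:69352913-69353032 on the minus strand (Cdk1), chr13:100786487-100786606 on the minus strand (Ccnb1), chr1:128359706-128359825 on the minus strand (Mcm6) and chr5:30073626-30073745 on the minus strand (Tyms).
Mki67: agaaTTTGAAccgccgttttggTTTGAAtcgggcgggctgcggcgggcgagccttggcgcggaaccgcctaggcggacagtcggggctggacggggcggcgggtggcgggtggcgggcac
Top2a: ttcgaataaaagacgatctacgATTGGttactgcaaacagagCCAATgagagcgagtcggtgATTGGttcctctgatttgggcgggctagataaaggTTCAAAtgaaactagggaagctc
Cdk1: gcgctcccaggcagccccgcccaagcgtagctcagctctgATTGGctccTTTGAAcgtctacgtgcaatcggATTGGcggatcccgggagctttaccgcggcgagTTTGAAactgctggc
Ccnb1: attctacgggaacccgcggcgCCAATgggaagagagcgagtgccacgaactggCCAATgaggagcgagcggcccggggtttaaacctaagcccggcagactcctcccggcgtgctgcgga
Mcm6: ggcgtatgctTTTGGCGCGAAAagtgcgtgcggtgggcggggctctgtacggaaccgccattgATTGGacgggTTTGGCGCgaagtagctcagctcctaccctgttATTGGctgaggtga
Tyms: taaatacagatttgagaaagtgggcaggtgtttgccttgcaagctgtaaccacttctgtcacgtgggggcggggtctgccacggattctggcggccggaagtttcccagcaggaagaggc
Of the 38 genes, 33 had a promoter in the RefSeq table, all but Mcm4, Ccna2, Aurkb, Tpx2 and Stmn1. In the 250 bases before the start CCAAT was found in 28 of these 33 (84.8%) and in 34.5% of 27025 promoters of all genes, and TTTGAA in 10 of 33 (30.3%) and in 16.3%. The E2F spellings were found in 4 of 33 (12.1%), namely Mcm5, Mcm6, Mcm7 and Cdk1, and in 1.91% of all promoters. TTTGAA and CCAAT stood together in 10 of 33 (30.3%) and in 5.73% of all promoters. The 10 were Mcm2, Ccnb2, Cdk1, Cks1b, Cdc20, Ube2c, Kif11, Mki67, Top2a and Hmgb2. In Tyms, Tk1, Ccne1, Birc5 and Nusap1 none of the 3 motifs was found in this window. The motifs are letters only, and no binding was measured in these samples.

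The clearest pattern was a shift of nearly the whole group between tumors of one genotype. APC-WT tumor 2 held less of these transcripts than APC-WT tumor 1, and APC-KO tumor 2 held more than APC-KO tumor 1. The mean over 6 libraries was lower in APC-WT tumor 2 for 34 of the 38 genes, all but Tyms, Ccne1, Cenpf and Kif23. It was higher in APC-KO tumor 2 for 37 of 38, all but Kif11. The sum over the 38 genes, background included, had a median of 2558 scaled CPM in APC-WT tumor 1 and 2007 in APC-WT tumor 2. It had a median of 2976 in APC-KO tumor 1 and 3820 in APC-KO tumor 2. The libraries of the 2 tumors of a genotype did not overlap in this sum (2439 to 2615 against 1909 to 2067, and 2878 to 3174 against 3767 to 3865).

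**Figure D1:**
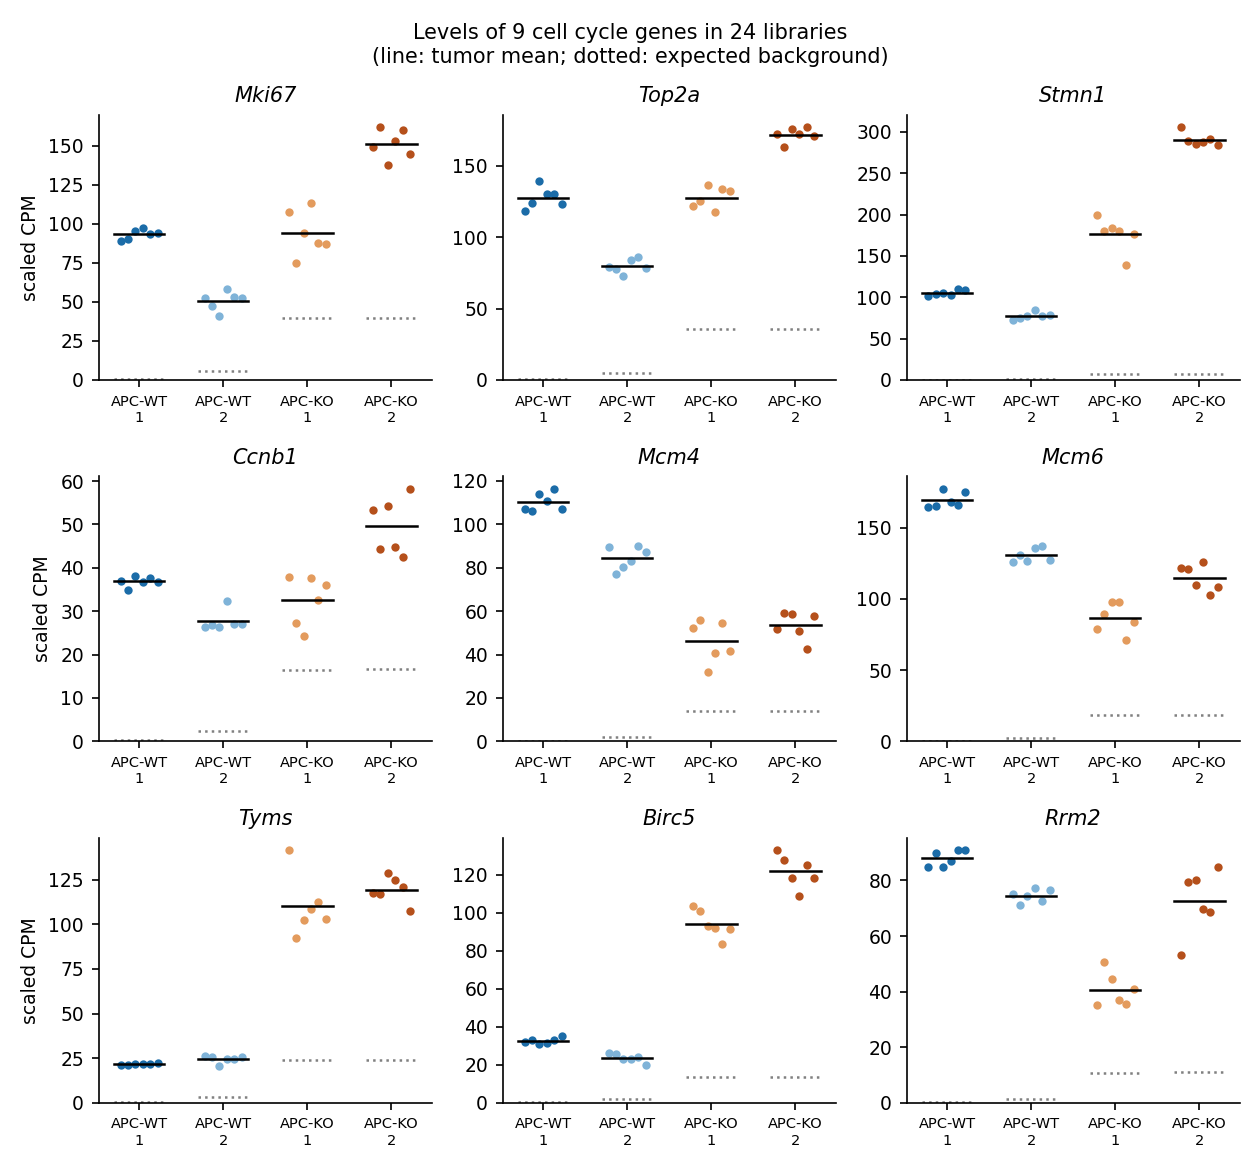
Scaled CPM (y axis) of 9 of the genes in each of the 24 libraries, by tumor (x axis). Points are libraries, solid lines tumor means and dotted lines the expected background. Mki67 and Top2a were lower in every library of APC-WT tumor 2 than of APC-WT tumor 1. They were higher in every library of APC-KO tumor 2 than of APC-KO tumor 1. Mcm4 and Mcm6 were highest in APC-WT tumor 1, and Tyms and Birc5 were higher in all 12 APC-KO libraries than in all 12 APC-WT libraries. The share of all genes that split by genotype in this way was not counted.

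Tests between tumors of one genotype used edgeR's quasi-likelihood test on the 24 libraries with Benjamini-Hochberg adjustment over all genes tested, and a gene is called where the adjusted p is below 0.05. Among the genes at 3 times background, 31 of the 36 cell cycle genes fell and 0 rose from APC-WT tumor 1 to tumor 2, where 25.3% of all 8382 genes fell and 18.6% rose. The median change of the 36 was -0.39 on the log2 scale and that of all 8382 was -0.02. From APC-KO tumor 1 to tumor 2, 24 of 36 rose and 0 fell, where 7.64% of all genes rose and 10.1% fell, and the medians were 0.34 and 0.01. Among the 15 genes at 10 times background, 13 fell and 0 rose between the APC-WT tumors (27.5% and 19.5% of 3938 genes), and 13 rose and 0 fell between the APC-KO tumors (15.2% and 18.1%). Without a limit on background, over 45451 genes that passed a filter on counts alone and with the same scaling, 31 of all 38 fell and 1, Tyms, rose between the APC-WT tumors (4.57% and 78.8% of all genes). In that fit 22 of 38 rose and 0 fell between the APC-KO tumors (1.22% and 1.29%).

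The 2 pairs of tumors share no library, so each gene has 2 differences from separate libraries. Both come from the same fit, with a joint scaling and a shared estimate of the spread, so their calls are not separate tests. Of the 36 genes, 21 (58.3%) fell between the APC-WT tumors and rose between the APC-KO tumors, and 0 did the reverse. Of all 8382 genes, 396 (4.72%) had the first pair of calls and 408 the reverse. The tumor numbers carry no order across genotypes, so lower in one pair and higher in the other says only that the genes moved together in each pair. The 6 libraries of APC-WT tumor 2 were all below the 6 of tumor 1 for 27 of the 36 genes (17.5% of 8382), and the 6 of APC-KO tumor 2 were all above the 6 of tumor 1 for 12 of 36 (3.2%) and all below for 0 (4.4%).

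**Figure D2:**
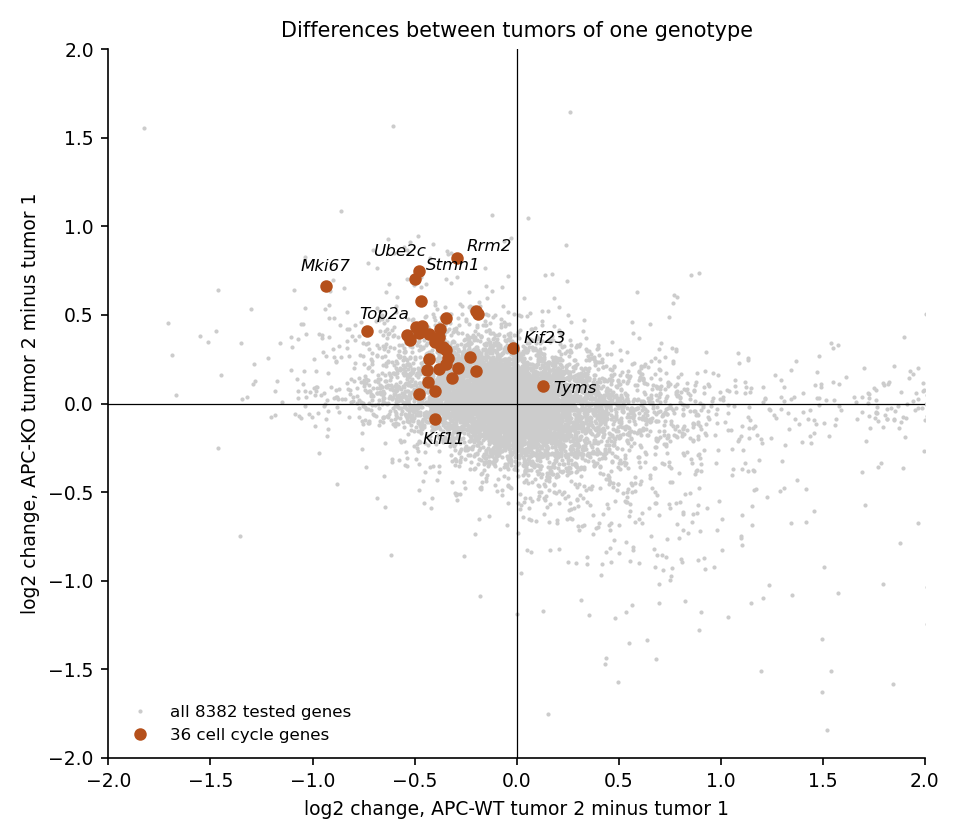
Log2 change from tumor 1 to tumor 2 in APC-WT (x axis) against that in APC-KO (y axis), from edgeR on 24 libraries. Orange points are the 36 cell cycle genes at 3 times background and grey points all 8382 genes tested, of which 85 lie beyond the axes at 2. Of the orange points 34 lie to the upper left, and Tyms (right) and Kif11 (below) lie outside it.

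Markers of other cells also differed between the tumors of a genotype, and 0 of 12 T and NK cell markers passed the limits for testing. From APC-WT tumor 1 to tumor 2, 5 of 5 monocyte, 4 of 4 neutrophil and 8 of 8 epithelial markers tested rose, while 5 of 5 fibroblast and 9 of 13 macrophage markers fell. From APC-KO tumor 1 to tumor 2, 4 of 4 neutrophil markers fell, 4 of 5 fibroblast and 4 of 8 epithelial markers rose, and of 13 macrophage markers 5 rose and 2 fell. The summed level of 13 macrophage markers ranged from 42648 to 44522 in APC-WT 1, 36079 to 37648 in APC-WT 2, 35146 to 36616 in APC-KO 1 and 36743 to 37427 in APC-KO 2. Summed fibroblast markers (8 genes) ranged from 1609 to 1757 in APC-WT 1, 895 to 1022 in APC-WT 2, 343 to 454 in APC-KO 1 and 558 to 619 in APC-KO 2. Summed neutrophil markers (9 genes) ranged from 306 to 331 in APC-WT 1, 551 to 635 in APC-WT 2, 482 to 558 in APC-KO 1 and 242 to 292 in APC-KO 2. Within each genotype the neutrophil sum was higher in the tumor with the lower cell cycle genes, and the fibroblast sum was higher in the tumor with the higher ones. Summed epithelial and tumor cell markers (9 genes) ranged from 196 to 217 in APC-WT 1, 672 to 715 in APC-WT 2, 284 to 349 in APC-KO 1 and 369.5 to 411 in APC-KO 2. Summed monocyte markers (5 genes) ranged from 454 to 509.6 in APC-WT 1, 802 to 919 in APC-WT 2, 517 to 613 in APC-KO 1 and 555 to 639 in APC-KO 2. Summed T and NK cell markers (12 genes) ranged from 21.9 to 28.5 in APC-WT 1, 46.6 to 52.6 in APC-WT 2, 143 to 179 in APC-KO 1 and 285 to 298 in APC-KO 2, with an expected background of 2.45, 17.6, 125 and 126. None of the markers was at 0 counts in a tumor. Of 6 B and plasma cell, 6 dendritic cell, 6 endothelial, 5 mast cell and 5 erythroid markers, 1, 2, 1, 0 and 0 were tested. Both dendritic cell markers and the endothelial one rose between the APC-WT tumors, and none of the 4 passed between the APC-KO tumors. The part of other cells in the differences of the cell cycle genes was not tested. The background was higher in APC-WT tumor 2 than in tumor 1, where these genes were lower, and it was alike in the APC-KO tumors (17.6% and 17.9% of counts). With the expected background subtracted, 27 of 36 fell between the APC-WT tumors (16.7% of all genes) and 26 of 36 rose between the APC-KO tumors (9.25%).

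In what follows, levels are mean scaled CPM ± SD over 6 libraries, background included, and changes are log2 values from the fits at 3 times background. Where all APC-KO libraries of a gene lay above or below all APC-WT libraries, the share of all genes that did so was not counted. Such splits are therefore not read as a trait of these genes. Counts of genes that passed stand beside 25.3% of all 8382 genes that fell between the APC-WT tumors and 7.64% that rose between the APC-KO tumors. The replication licensing group, the 6 MCM helicase subunits measured and the clamp Pcna, fell in all 7 members between the APC-WT tumors and rose in 3 of 7 between the APC-KO tumors. Its sum above background was 834 ± 17.4 in APC-WT 1, 634 ± 26.6 in APC-WT 2, 419 ± 24.3 in APC-KO 1 and 524 ± 31.9 in APC-KO 2, so both APC-KO tumors were below both APC-WT tumors. Mcm6 (ENSMUSG00000026355, chr1:128331590-128359664, minus strand in GRCm38) stood at 169.5 ± 5.56 in APC-WT 1, 131 ± 4.79 in APC-WT 2, 86.6 ± 10.6 in APC-KO 1 and 115 ± 9.19 in APC-KO 2. It fell by 0.43 ± 0.06 (SE; adjusted p = 3.8e-06) between the APC-WT tumors and rose by 0.39 ± 0.07 (SE; adjusted p = 7.5e-05) between the APC-KO tumors. Mcm4 (ENSMUSG00000022673, chr16:15623897-15637400, minus strand) stood at 110.2 ± 4.18 in APC-WT 1, 84.5 ± 5.18 in APC-WT 2, 46.1 ± 9.47 in APC-KO 1 and 53.4 ± 6.38 in APC-KO 2, and its change between the APC-KO tumors was 0.19 ± 0.10 (SE; adjusted p = 0.244). Mcm3 stood at 159 ± 6.32 in APC-WT 1, 122 ± 4.71 in APC-WT 2, 72.6 ± 10.9 in APC-KO 1 and 87.1 ± 13.5 in APC-KO 2. Both were lower in all 12 APC-KO libraries than in all 12 APC-WT libraries. Mcm5 stood at 109 ± 3.34 in APC-WT 1, 81.5 ± 5.32 in APC-WT 2, 83.8 ± 18.2 in APC-KO 1 and 88 ± 14.4 in APC-KO 2. Mcm7 was at 88.3 ± 3.76 in APC-WT 1, 70.7 ± 5.67 in APC-WT 2, 82.2 ± 8.92 in APC-KO 1 and 112 ± 11.6 in APC-KO 2. Mcm2 stood at 119 ± 2.46 in APC-WT 1, 91.7 ± 6.63 in APC-WT 2, 70.5 ± 7.54 in APC-KO 1 and 77.5 ± 7.78 in APC-KO 2, with an expected background of 0.535, 3.85, 27.3 and 27.5 in that order. Mcm7 was the MCM gene with the largest rise between the APC-KO tumors, 0.42 ± 0.08 (SE; adjusted p = 2.1e-04), but 47.6% of its 31-base words occur in other genes, mostly the pseudogene Gm5487, and it overlaps Ap4m1 and Cops6 on the other strand.

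Pcna is the sliding clamp of replication and also acts in repair. Its lowest, median and highest library values were 76.2, 80.3 and 87.3 in APC-WT 1, 66.8, 68.7 and 71.4 in APC-WT 2, 79.6, 93.5 and 107 in APC-KO 1 and 96.7, 109.9 and 120.1 in APC-KO 2. The APC-KO medians were the higher ones on this scale, unlike those of Mcm2, Mcm3, Mcm4 and Mcm6, and APC-KO 1 overlapped APC-WT 1. Pcna fell by 0.29 ± 0.06 (SE; adjusted p = 5.8e-04) between the APC-WT tumors and rose by 0.20 ± 0.07 (SE; adjusted p = 0.0357) between the APC-KO tumors.

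The genes of deoxynucleotide synthesis did not move as one. Tyms, thymidylate synthase (ENSMUSG00000025747, chr5:30058202-30073617, minus strand), stood at 21.6 ± 0.398 in APC-WT 1, 24.6 ± 1.95 in APC-WT 2, 110.1 ± 16.9 in APC-KO 1 and 119 ± 7.25 in APC-KO 2, with an expected background of 0.468, 3.37, 23.9 and 24.1. The 12 APC-KO libraries were all above the 12 APC-WT libraries, and Tyms passed the test in neither pair of tumors (0.13 ± 0.08 (SE; adjusted p = 0.175) in APC-WT and 0.10 ± 0.08 (SE; adjusted p = 0.454) in APC-KO). Tk1, thymidine kinase, stood at 44.4 ± 2.06 in APC-WT 1, 40.2 ± 2.46 in APC-WT 2, 116 ± 15.6 in APC-KO 1 and 133 ± 18.4 in APC-KO 2, with a background of 0.3998, 2.87, 20.4 and 20.5. It too passed in neither pair. Rrm2, the regulated subunit of ribonucleotide reductase, stood at 88 ± 2.90 in APC-WT 1, 74.5 ± 2.39 in APC-WT 2, 40.6 ± 6.05 in APC-KO 1 and 72.6 ± 11.5 in APC-KO 2. It fell by 0.29 ± 0.09 (SE; adjusted p = 0.00657) between the APC-WT tumors and rose by 0.82 ± 0.09 (SE; adjusted p = 1.9e-07) between the APC-KO tumors, the largest rise there of the 36 genes. Rrm1, the large subunit, stood at 114 ± 5.94 in APC-WT 1, 89.6 ± 4.53 in APC-WT 2, 125 ± 6.41 in APC-KO 1 and 134 ± 11.4 in APC-KO 2, with a background of 0.847, 6.09, 43.2 and 43.5. It fell between the APC-WT tumors only, with 0.07 ± 0.06 (SE; adjusted p = 0.466) between the APC-KO tumors. The difference between the 2 pairs was not tested.

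Of the cyclins and the CDK1 complex, 4 of 5 tested genes fell between the APC-WT tumors (25.3% of all genes) and 5 of 5 rose between the APC-KO tumors (7.64%). Ccnb1, cyclin B1, had lowest, median and highest library values of 34.8, 36.9 and 38.2 in APC-WT 1, 26.3, 27 and 32.3 in APC-WT 2, 24.4, 34.2 and 37.8 in APC-KO 1 and 42.5, 49.1 and 58.2 in APC-KO 2, with a background of 0.324, 2.33, 16.6 and 16.7. It fell by 0.47 ± 0.09 (SE; adjusted p = 2.0e-04) in the first pair and rose by 0.58 ± 0.10 (SE; adjusted p = 1.2e-04) in the second, with no overlap of libraries in either, and 46.9% of its 31-base words occur in other genes, mostly Ccnb1-ps. Cdk1, the mitotic kinase that cyclin B activates, had values of 36.4, 37.6 and 39.2 in APC-WT 1, 23.9, 27.7 and 33.4 in APC-WT 2, 47.1, 60.3 and 67.3 in APC-KO 1 and 70.1, 78.1 and 92.6 in APC-KO 2, with a background of 0.380, 2.73, 19.4 and 19.5. Again neither pair overlapped, and Cdk1 fell by 0.48 ± 0.08 (SE; adjusted p = 4.8e-05) and rose by 0.40 ± 0.09 (SE; adjusted p = 0.00174). Ccnb2, the second B-type cyclin, stood at 32.9 ± 1.77 in APC-WT 1, 29.9 ± 1.72 in APC-WT 2, 35.2 ± 7.06 in APC-KO 1 and 50.3 ± 5.11 in APC-KO 2 and passed only in the APC-KO pair. Cks1b, a small CDK partner, stood at 20.8 ± 0.922 in APC-WT 1, 17 ± 0.879 in APC-WT 2, 41.5 ± 7.39 in APC-KO 1 and 59 ± 7.38 in APC-KO 2. Ccna2, cyclin A2, stood at 35.4 ± 2.99 in APC-WT 1, 28.7 ± 3.75 in APC-WT 2, 51 ± 6.67 in APC-KO 1 and 64.6 ± 4.89 in APC-KO 2, with a background of 0.314, 2.26, 16 and 16.1. Its exons overlap Exosc9 over 510 bases on the other strand, and the counting is not stated to use strand. Ccne1, cyclin E1 of the start of replication, stood at 13.6 ± 1.15 in APC-WT 1, 14.1 ± 1.32 in APC-WT 2, 23.5 ± 9.11 in APC-KO 1 and 26.9 ± 4.01 in APC-KO 2, with a background of 0.205, 1.47, 10.5 and 10.5. It did not pass the limits for testing.

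All 6 genes of mitotic kinases and the spindle checkpoint fell between the APC-WT tumors (25.3% of all genes), and 4 of 6 rose between the APC-KO tumors (7.64%). Birc5 encodes survivin, which with Aurora B forms the chromosomal passenger complex. Its lowest, median and highest library values were 30.8, 32.5 and 35 in APC-WT 1, 19.7, 23.7 and 26.1 in APC-WT 2, 83.7, 92.6 and 103 in APC-KO 1 and 109, 122 and 133 in APC-KO 2 (ENSMUSG00000017716, chr11:117849251-117855743, plus strand). The 4 tumors formed 4 separate ranges, and Birc5 fell by 0.52 ± 0.06 (SE; adjusted p = 2.8e-07) and rose by 0.36 ± 0.07 (SE; adjusted p = 2.2e-04). Aurkb, Aurora B itself, stood at 43.1 ± 2.07 in APC-WT 1, 31.8 ± 3.01 in APC-WT 2, 48.4 ± 11.7 in APC-KO 1 and 66 ± 5.47 in APC-KO 2. Aurka, Aurora A of the spindle poles, stood at 30.9 ± 1.49 in APC-WT 1, 25.2 ± 1.47 in APC-WT 2, 40.5 ± 11.6 in APC-KO 1 and 48.2 ± 6.09 in APC-KO 2, with a background of 0.195, 1.40, 9.94 and 10. Plk1, the Polo-like kinase, stood at 31.8 ± 2.07 in APC-WT 1, 22.8 ± 3.10 in APC-WT 2, 29.5 ± 3.99 in APC-KO 1 and 39 ± 4.09 in APC-KO 2, with a background of 0.169, 1.22, 8.63 and 8.69. It fell by 0.54 ± 0.09 (SE; adjusted p = 3.2e-05) and rose by 0.39 ± 0.10 (SE; adjusted p = 0.00627). Bub1b, the checkpoint protein BubR1, stood at 65.1 ± 5.30 in APC-WT 1, 51.9 ± 5.00 in APC-WT 2, 38.7 ± 4.06 in APC-KO 1 and 50.9 ± 6.87 in APC-KO 2, with a background of 0.329, 2.36, 16.8 and 16.9. Bub1, its kinase relative, stood at 29.8 ± 1.53 in APC-WT 1, 24.6 ± 1.71 in APC-WT 2, 26.4 ± 5.83 in APC-KO 1 and 32 ± 5.76 in APC-KO 2, with a background of 0.335, 2.41, 17.1 and 17.2. In the APC-KO tumors this left little signal above background.

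Cdc20 and Ube2c serve the anaphase-promoting complex, the first as activator and the second as its ubiquitin-conjugating enzyme. Cdc20 stood at 32.6 ± 1.71 in APC-WT 1, 29.4 ± 1.79 in APC-WT 2, 42.6 ± 8.86 in APC-KO 1 and 62.5 ± 9.27 in APC-KO 2. Ube2c stood at 25.2 ± 1.80 in APC-WT 1, 18.8 ± 1.30 in APC-WT 2, 32.7 ± 6.64 in APC-KO 1 and 55.7 ± 9.06 in APC-KO 2, with a background of 0.2000, 1.44, 10.2 and 10.3. It changed by -0.48 ± 0.10 (SE; adjusted p = 5.1e-04) and 0.75 ± 0.11 (SE; adjusted p = 1.4e-05) in the 2 pairs. Ube2c overlaps Tnnc2 over 592 bases on the other strand.

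Of the kinetochore, motor and spindle genes, 6 of 7 tested fell between the APC-WT tumors (25.3% of all genes) and 5 of 7 rose between the APC-KO tumors (7.64%). Their sum above background was 309 ± 10.9 in APC-WT 1, 231 ± 7.83 in APC-WT 2, 363 ± 43.1 in APC-KO 1 and 479.8 ± 30.9 in APC-KO 2. Cenpa, the histone variant of centromeres, stood at 51.1 ± 1.42 in APC-WT 1, 45.3 ± 2.98 in APC-WT 2, 114 ± 11.1 in APC-KO 1 and 139 ± 8.99 in APC-KO 2, with a background of 0.451, 3.24, 23 and 23.2. Cenpe, the kinetochore motor, stood at 35.2 ± 1.92 in APC-WT 1, 28.3 ± 2.40 in APC-WT 2, 83.2 ± 12.5 in APC-KO 1 and 105 ± 8.21 in APC-KO 2, with a background of 0.663, 4.77, 33.8 and 34.1. Kif23, a motor of cytokinesis, stood at 32.8 ± 2.57 in APC-WT 1, 33.6 ± 3.51 in APC-WT 2, 78.3 ± 10.4 in APC-KO 1 and 98.6 ± 5.10 in APC-KO 2, with a background of 0.608, 4.37, 31 and 31.2. These 3 were higher in all APC-KO libraries than in all APC-WT libraries, on levels that include the higher APC-KO background. Kif11, the motor that separates spindle poles, stood at 38.7 ± 2.30 in APC-WT 1, 30.4 ± 1.33 in APC-WT 2, 57.8 ± 8.56 in APC-KO 1 and 54.8 ± 13.2 in APC-KO 2, with a background of 0.574, 4.13, 29.3 and 29.5. Tpx2, an activator of Aurora A, stood at 50.02 ± 2.72 in APC-WT 1, 39.4 ± 3.60 in APC-WT 2, 44 ± 9.19 in APC-KO 1 and 56.5 ± 4.91 in APC-KO 2, with a background of 0.360, 2.59, 18.4 and 18.5. Prc1, which bundles the central spindle, stood at 57.1 ± 3.44 in APC-WT 1, 45.5 ± 4.02 in APC-WT 2, 73.6 ± 9.63 in APC-KO 1 and 85 ± 9.73 in APC-KO 2, with a background of 0.633, 4.55, 32.3 and 32.5. It overlaps Rccd1 over 911 bases on the other strand. Kif11 alone of the 36 genes had a negative value in the APC-KO pair, -0.09 ± 0.12 (SE; adjusted p = 0.702), which did not pass. Nusap1, a spindle protein, stood at 25.5 ± 1.77 in APC-WT 1, 19.2 ± 1.96 in APC-WT 2, 31.4 ± 5.16 in APC-KO 1 and 42.7 ± 7.12 in APC-KO 2, with a background of 0.312, 2.24, 15.9 and 16. Cenpf, a large kinetochore protein with a longest transcript of 11130 bases, did not pass the limits for testing and stood at 23.5 ± 1.30 in APC-WT 1, 24.1 ± 2.81 in APC-WT 2, 125 ± 9.79 in APC-KO 1 and 145 ± 8.93 in APC-KO 2, with a background of 1.19, 8.53, 60.6 and 61.

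Stmn1 and Tubb5 act on microtubules. Stmn1 encodes stathmin, which takes microtubules apart, and stood at 105 ± 3.40 in APC-WT 1, 77.6 ± 3.93 in APC-WT 2, 176 ± 20.3 in APC-KO 1 and 291 ± 7.63 in APC-KO 2. It fell by 0.50 ± 0.06 (SE; adjusted p = 5.5e-08) between the APC-WT tumors and rose by 0.70 ± 0.06 (SE; adjusted p = 4.6e-10) between the APC-KO tumors, and 42.6% of its 31-base words occur in other genes, mostly Gm11223. Tubb5, a beta tubulin, had lowest, median and highest library values of 157, 166 and 173 in APC-WT 1, 129.5, 137 and 144 in APC-WT 2, 231, 261 and 276 in APC-KO 1 and 266, 283 and 326 in APC-KO 2. It fell by 0.32 ± 0.05 (SE; adjusted p = 1.2e-05) between the APC-WT tumors, with 0.14 ± 0.05 (SE; adjusted p = 0.0552) between the APC-KO tumors.

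Of the chromatin genes and the proliferation antigen, all 3 tested fell between the APC-WT tumors (25.3% of all genes) and rose between the APC-KO tumors (7.64%), and Mki67 and Top2a had the 2 largest falls of the 36 genes. Mki67, the Ki-67 antigen that coats mitotic chromosomes (ENSMUSG00000031004, chr7:135689784-135716361, minus strand), had lowest, median and highest library values of 89.3, 93.8 and 97.1 in APC-WT 1, 40.7, 52.6 and 58.2 in APC-WT 2, 74.9, 91 and 113 in APC-KO 1 and 138, 151 and 162 in APC-KO 2, with a background of 0.774, 5.56, 39.5 and 39.8. Its change was -0.93 ± 0.08 (SE; adjusted p = 1.1e-09) between the APC-WT tumors and 0.67 ± 0.09 (SE; adjusted p = 1.8e-06) between the APC-KO tumors, the former rank 75 of 8382 from the lowest and the latter rank 46 from the highest. Neither pair of tumors overlapped. Top2a, topoisomerase II alpha, had values of 118, 127 and 139 in APC-WT 1, 73.1, 78.5 and 86.4 in APC-WT 2, 117, 128 and 136 in APC-KO 1 and 163, 172 and 177 in APC-KO 2, with a background of 0.693, 4.98, 35.4 and 35.6. Its changes were -0.73 ± 0.05 (SE; adjusted p = 9.2e-12) and 0.41 ± 0.05 (SE; adjusted p = 1.3e-06). APC-WT tumor 1 and APC-KO tumor 1 overlapped for both genes, so on this scale the order of the tumors was not that of the genotypes. Hmgb2, a chromatin protein high in dividing cells, had values of 158, 167 and 170.1 in APC-WT 1, 132, 135 and 138 in APC-WT 2, 215, 222 and 261 in APC-KO 1 and 265, 287 and 302 in APC-KO 2. Its changes were -0.35 ± 0.04 (SE; adjusted p = 2.4e-07) and 0.30 ± 0.04 (SE; adjusted p = 8.8e-06), and its 4 tumors were again 4 separate ranges.

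**Figure D3:**
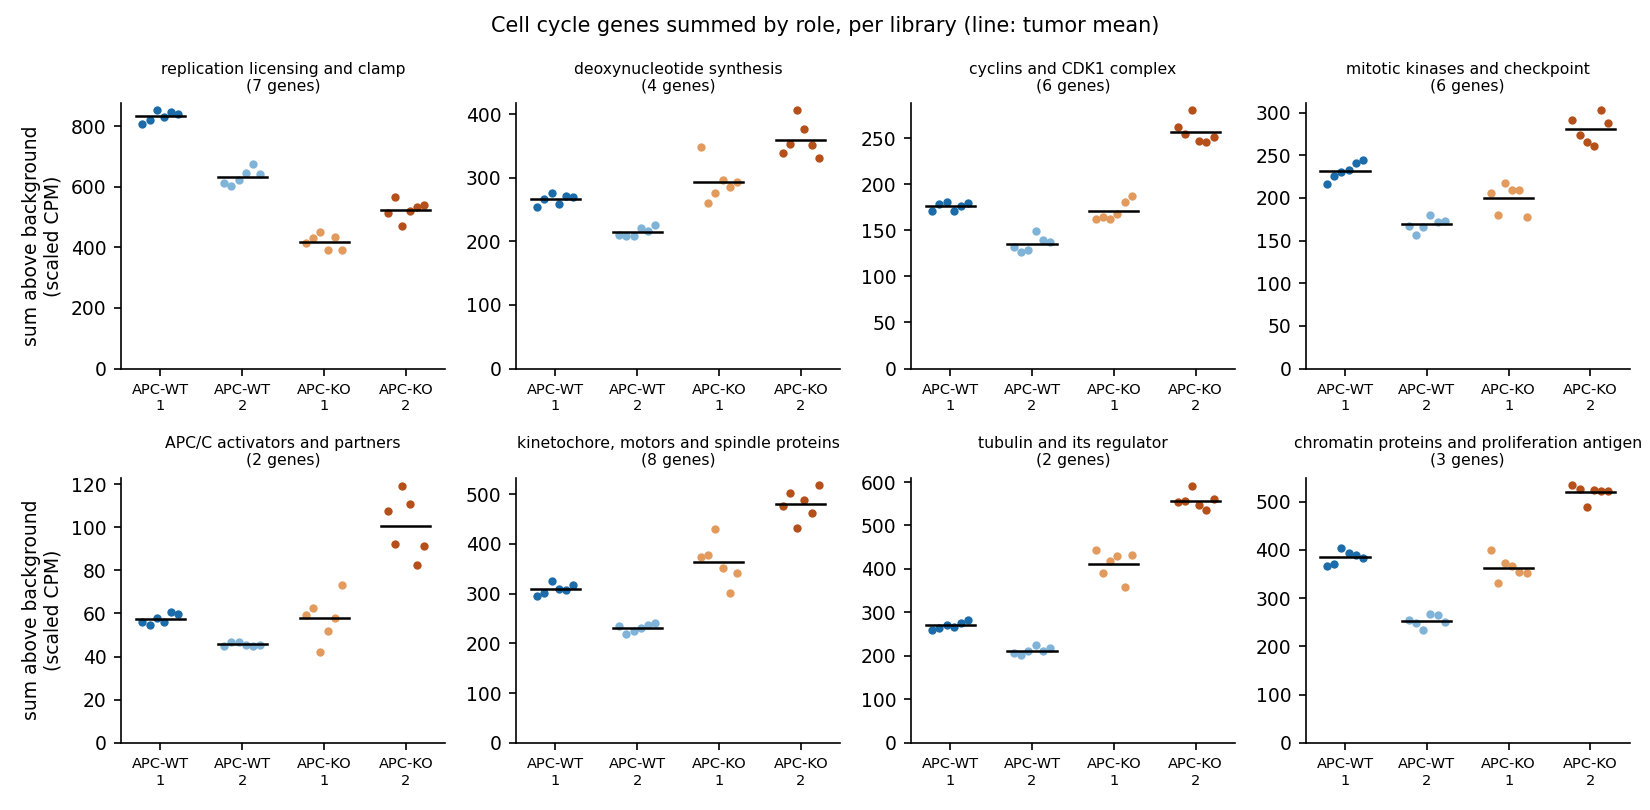
Summed scaled CPM above expected background (y axis) of the genes of each role in every library, by tumor (x axis). Points are libraries and lines tumor means. In each panel APC-WT tumor 2 has a lower mean than APC-WT tumor 1 and APC-KO tumor 2 a higher mean than APC-KO tumor 1, and only the replication licensing panel has both APC-KO means below both APC-WT means.

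Per kb of the principal isoform and above background, Stmn1 was the highest of the 38 genes in each tumor, at 99.3 scaled CPM per kb in APC-WT tumor 1 and 267 in APC-KO tumor 2. In APC-WT tumor 1 it was followed by Hmgb2 (62.8), Tubb5 (62.2), Mcm6 (58.1) and Pcna (53.2). In APC-KO tumor 2 the next were Birc5 (115), Hmgb2 (104), Tubb5 (103) and Cenpa (79.0). Cenpf was lowest in APC-WT tumor 1 (2.01) and Bub1 in APC-KO tumor 2 (4.33). Birc5 lay at 34.2 in APC-WT tumor 1 and 22.9 in tumor 2, and at 85.3 and 115 in the APC-KO tumors, where it was above each of the 6 MCM genes.

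The comparison of the genotypes, which the design names, was made on the 4 tumor sums with edgeR's quasi-likelihood test, with an offset that removes a trend of the counts with the length of the longest transcript. In the fit at 3 times background Mcm2, Mcm3, Mcm4, Mcm6 and Bub1b were lower in APC-KO and Tyms, Tk1, Birc5, Cenpa, Cenpe and Kif23 were higher, and of the replication licensing group Mcm5, Mcm7 and Pcna did not pass. Of the 36 genes there 6 rose (29.9% of 8382 genes) and 5 fell (32.3%), both shares of the group being below those of all genes, and the median of the 36 was 0.18 against -0.04 for all. Among the 5 that fell were Mcm4 at -1.37 ± 0.21 (SE; adjusted p = 0.00501), Mcm3 at -1.27 ± 0.22 (SE; adjusted p = 0.00703) and Mcm6 at -1.01 ± 0.23 (SE; adjusted p = 0.0163). Called lower with them were Mcm2 at -0.95 ± 0.20 (SE; adjusted p = 0.0134) and Bub1b at -0.80 ± 0.22 (SE; adjusted p = 0.0272). Mcm2 (2.58 and 2.82 times) and Bub1b (2.30 and 3.01 times) lay near or below 3 times background in the APC-KO tumors and passed the limit through the APC-WT tumors, where they lay at 223 and 23.8 times and at 198 and 22 times. A gene that passes the limit that way has to differ, so these 2 values carry no weight as tests. Without a limit on background, over 53705 genes scaled alike and with no offset, 59.2% rose and 2.75% fell. There Mcm2 was at -0.50 ± 0.18 (SE; adjusted p = 0.0352) and Bub1b at -0.36 ± 0.23 (SE; adjusted p = 0.151). Among the 6 that rose were Tyms at 1.92 ± 0.11 (SE; adjusted p = 0.00188), Birc5 at 1.48 ± 0.25 (SE; adjusted p = 0.007) and Tk1 at 1.15 ± 0.15 (SE; adjusted p = 0.00321). With them rose Kif23 at 0.98 ± 0.15 (SE; adjusted p = 0.00533), Cenpa at 0.97 ± 0.17 (SE; adjusted p = 0.00688) and Cenpe at 0.82 ± 0.18 (SE; adjusted p = 0.0145). Kif23 and Cenpe lay below 3 times background in APC-KO tumor 1, so part of their level there was expected background. Mki67 at -0.16 ± 0.36 (SE; adjusted p = 0.718), Top2a at 0.05 ± 0.29 (SE; adjusted p = 0.897) and Cdk1 at 0.66 ± 0.24 (SE; adjusted p = 0.0644) did not pass. Pcna at -0.18 ± 0.16 (SE; adjusted p = 0.376) and Ccnb1 at -0.05 ± 0.27 (SE; adjusted p = 0.891) did not pass either. In the same fit 10 of 13 macrophage and 4 of 5 fibroblast markers tested fell and none rose, 0 of 8 epithelial markers passed, and 1 of 4 neutrophil markers fell. The part of these cells in the genotype differences was not tested.

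Lowest, median and highest library values of the genes that passed are given for those not yet shown in that form. Mcm4 had 106, 109 and 116 in APC-WT 1, 77.1, 85.2 and 89.9 in APC-WT 2, 32, 46.8 and 55.8 in APC-KO 1 and 42.7, 54.6 and 58.9 in APC-KO 2. Mcm3 had 148, 160.0 and 166 in APC-WT 1, 116, 121 and 129 in APC-WT 2, 59.9, 72.9 and 87.5 in APC-KO 1 and 72.6, 86.6 and 108 in APC-KO 2. Mcm6 had 164, 167 and 177 in APC-WT 1, 126, 129 and 137 in APC-WT 2, 71.2, 86.6 and 97.9 in APC-KO 1 and 103, 115 and 126 in APC-KO 2. These 3 belong to one helicase, as does Mcm2, which had 116, 119 and 122 in APC-WT 1, 82.9, 94.5 and 98 in APC-WT 2, 62.5, 69.9 and 82.3 in APC-KO 1 and 65.1, 78.9 and 85.1 in APC-KO 2. Mcm3, Mcm4 and Mcm6 were lower in every APC-KO library than in every APC-WT library, and Mcm2 overlapped between APC-WT 2 and the APC-KO tumors. Bub1b, with 56.8, 65.4 and 72.6 in APC-WT 1, 44, 51.9 and 57.5 in APC-WT 2, 33.6, 38.4 and 43.5 in APC-KO 1 and 44.2, 49.6 and 63.9 in APC-KO 2, overlapped between the genotypes. Tyms had 21.1, 21.7 and 22.2 in APC-WT 1, 20.8, 25.2 and 26.1 in APC-WT 2, 92.1, 106 and 142 in APC-KO 1 and 108, 119 and 129 in APC-KO 2. Tk1 had 41.9, 43.8 and 47.7 in APC-WT 1, 35.7, 40.4 and 42.7 in APC-WT 2, 98.7, 114 and 143 in APC-KO 1 and 118, 126 and 159 in APC-KO 2. For both the highest APC-WT library was below the lowest APC-KO library. Cenpa had 49, 51.3 and 52.5 in APC-WT 1, 42.4, 44.6 and 50.9 in APC-WT 2, 105, 111 and 135 in APC-KO 1 and 126, 140.1 and 148 in APC-KO 2. Cenpe had 32.7, 35.4 and 37.7 in APC-WT 1, 25.8, 28 and 31.8 in APC-WT 2, 67.5, 81.9 and 99.2 in APC-KO 1 and 96.1, 103 and 120.3 in APC-KO 2. For Kif23 the values were 30.2, 32.4 and 37.3 in APC-WT 1, 29.2, 33.8 and 38.8 in APC-WT 2, 65.8, 78.2 and 94.6 in APC-KO 1 and 91.5, 100.1 and 104 in APC-KO 2. The same held for these 3 genes. The share of all genes that split in this way was not counted. On this scale, without offset, 59.2% of 53705 genes were called higher in APC-KO. The splits are therefore not read as a trait of these genes.

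The reference set changed what counts as higher. Among the 3938 genes at 10 times background, 15 of the 38 genes were tested, 3 rose (24.9% of all) and 0 fell (24.4%), and their median was 0.25 against -0.03. The 3 were Birc5 at 2.33 ± 0.23 (SE; adjusted p = 0.00367), Tubb5 at 1.08 ± 0.15 (SE; adjusted p = 0.00681) and Hmgb2 at 0.99 ± 0.18 (SE; adjusted p = 0.0132). By edgeR 5 of the 15 had an unadjusted p below 0.05, and DESeq2 with the same offset called 4 higher and 1 lower (28.7% and 29.3% of all genes). Against this set Mcm4 was at -0.50 ± 0.17 (SE; adjusted p = 0.0696), Mcm3 at -0.41 ± 0.19 (SE; adjusted p = 0.128) and Mcm6 at -0.06 ± 0.21 (SE; adjusted p = 0.823), none of which passed. The median of these 3938 genes lay at -0.54 in the fit at 3 times background, and single genes moved by unequal amounts from one fit to the other. Among the 8382 genes Tubb5 was at 0.42 ± 0.18 (SE; adjusted p = 0.0948) and Hmgb2 at 0.34 ± 0.20 (SE; adjusted p = 0.2). On scaled CPM without offset 31 of the 38 genes had the higher mean in APC-KO, and in CPM of all counts 10 of 38 did. On the first scale the median change was 0.71 for the 38 genes and 3.57 for 53705 genes that passed a filter on counts alone. Being higher there is therefore no trait of the group. The share of all genes on the second scale was not counted.

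The length offset changed the value of Birc5, whose longest transcript has 3334 bases and whose principal isoform has 947. With the offset on the principal isoform, an alternative added after the data were seen, Birc5 was at 0.84 ± 0.23 (SE; adjusted p = 0.0423) among genes at 10 times background (23.4% of 3769 genes rose). With the background also subtracted it was at 0.76 ± 0.26 (SE; adjusted p = 0.0586) at 3 times background, where it did not pass. Cenpa (a principal isoform of 1466 and a longest transcript of 3806 bases) went from 0.97 to 0.67 ± 0.17 (SE; adjusted p = 0.0225) and Tk1 (1440 and 2490 bases in the same order) from 1.15 to 0.82 ± 0.15 (SE; adjusted p = 0.00942). Over 6 combinations of offset and background at 3 times background, 5 genes rose in each (Tyms, Tk1, Cenpa, Cenpe and Kif23) and 3 fell in each (Mcm2, Mcm3 and Mcm4). All 6 share the limit that Mcm2 passed through the APC-WT tumors, so its falls carry no weight as tests. None of the 36 rose in one combination and fell in another. Shares of all genes that rose were 29.9%, 32.6% without offset and 28.9% with the principal isoform offset. They were 28.2%, 30.8% and 26.6% with the background subtracted as well. Shares that fell were 32.3%, 32.7% and 31.4%, and 30.1%, 32.3% and 28.4%, in the same order. The largest rise and fall were those of Tyms, between 1.81 and 2.30, and Mcm4, between -1.51 and -1.14.

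**Figure D4:**
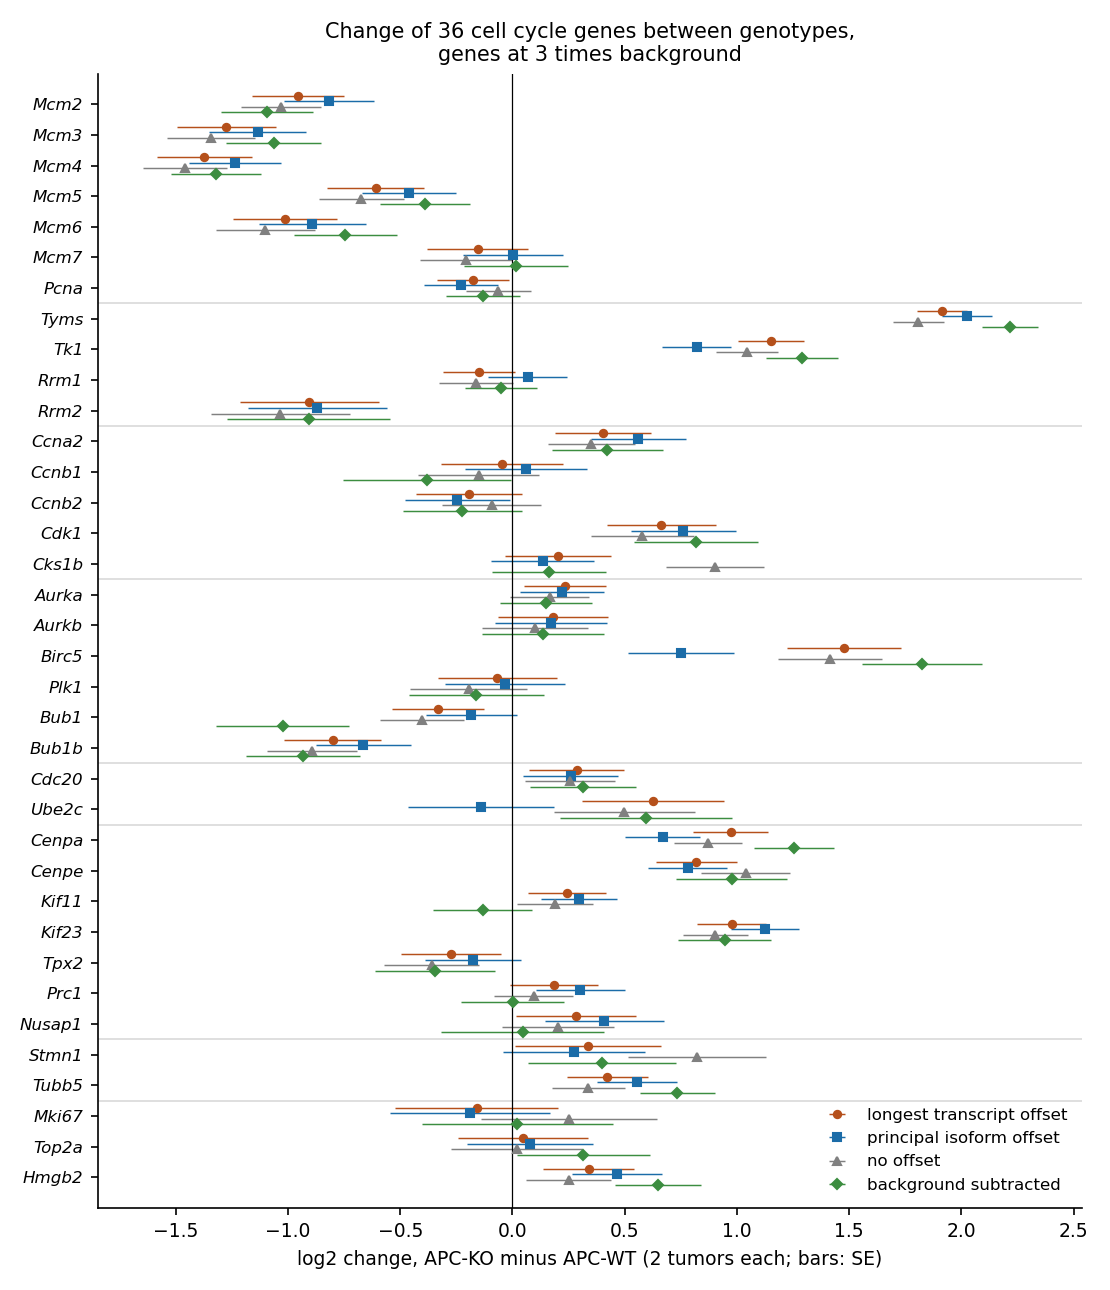
Log2 change from APC-WT to APC-KO (x axis) of the 36 genes at 3 times background (y axis, ordered by role, grey lines between roles), from edgeR on 2 tumor sums per genotype. Symbols are 3 length settings and the subtraction of background, and bars are SE. Mcm2, Mcm3, Mcm4 and Mcm6 lie left of 0 and Tyms, Tk1, Birc5, Cenpa, Cenpe and Kif23 right of 0 under all 4. Mcm2 and Bub1b passed the limit through the APC-WT tumors, so their values carry no weight as tests.

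Leaving out 1 tumor changed several of these calls, and the lone tumor of its genotype was then assumed to vary like the others. Without APC-KO tumor 1 the only one of the 5 lower genes that still passed was Mcm4, and 6 rose (17.9% of all genes fell and 17.8% rose). Without APC-WT tumor 1, 14 of 36 rose and 5 fell (33.7% and 33.9% of all genes). Without APC-WT tumor 2 the median change of the 36 was -0.04, and that of all genes was also -0.04. Genes lower in that fit included Mcm2, Rrm1, Bub1, Bub1b and Tpx2. These lay below 3 times background in APC-KO tumor 1 and passed the limit through the APC-WT tumors. Their lower values in any of these fits carry no weight as tests. Without APC-KO tumor 2 Mcm2, Bub1b and Cenpe did not pass and Rrm2 fell, which left 5 that rose and 4 that fell (16.6% and 17.5%). The share of the 36 was below that of all genes in each of these fits, except for the rises without APC-WT tumor 1. With any 1 of the 4 tumors left out, Tyms, Tk1, Birc5, Cenpa and Kif23 passed as higher and Mcm4 as lower. Among genes at 10 times background, Mcm5 was at 0.49 and Mcm7 at 0.81 without APC-WT tumor 1. Mcm3 was at -0.59 and Mcm4 at -0.68 without APC-WT tumor 2. In the APC-KO tumors Mcm3 (4.93 and 5.88 times) and Mcm4 (3.27 and 3.76 times) lay below 10 times background. They passed that limit through the APC-WT tumors, so their lower values in this set carry no weight as tests. Without APC-KO tumor 2 Hmgb2 did not pass and 1 gene, Rrm2, fell (9.45%).

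Ratios of 2 of these genes within a library depend on no scaling. They were chosen after the values were seen and carry no test. Counts of Birc5 over counts of Mcm4 were 0.270 to 0.327 in APC-WT 1, 0.226 to 0.331 in APC-WT 2, 1.53 to 2.91 in APC-KO 1 and 2.01 to 2.94 in APC-KO 2. Counts of Tyms over Mcm4 were 0.185 to 0.207 in APC-WT 1, 0.259 to 0.331 in APC-WT 2, 1.65 to 3.21 in APC-KO 1 and 1.87 to 2.83 in APC-KO 2. Kif23 over Bub1b gave 0.457 to 0.549 in APC-WT 1, 0.601 to 0.674 in APC-WT 2, 1.53 to 2.81 in APC-KO 1 and 1.47 to 2.31 in APC-KO 2. The 24 libraries, from 4 tumors, split by genotype without overlap in all 3. Over Mcm4 this had to follow, since Birc5 and Tyms were higher and Mcm4 lower in each APC-KO library. Bub1b passed the limit on background through the APC-WT tumors. The share of gene pairs that split in this way was not counted. With the expected background subtracted the ratio of Birc5 to Mcm4 was 0.268 to 0.325 in APC-WT 1, 0.208 to 0.315 in APC-WT 2, 1.73 to 4.53 in APC-KO 1 and 2.36 to 3.91 in APC-KO 2, again without overlap. Counts of Mki67 over Mcm6 were 0.536 to 0.577 in APC-WT 1, 0.322 to 0.429 in APC-WT 2, 0.840 to 1.36 in APC-KO 1 and 1.22 to 1.56 in APC-KO 2, so the libraries of the APC-WT tumors did not overlap in it either. Satellite-like counts and background differed with the genotype as well (satellite-like 1.32% and 7.08% against 37.9% and 38.5% of counts). The ratios also carry no offset for the trend of the counts with transcript length, which changed the value of Birc5 above. The part of satellite-like counts, background and length in these ratios was not tested.

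Beyond the 38 genes, 139 further genes of the cycle were listed in 7 groups, of which 49 reached 10 times background. From APC-WT to APC-KO 16 of the 49 rose and 6 fell (24.9% and 24.4% of all 3938 genes), with a median of 0.27 against -0.03. Of 113 at 3 times background 39 rose and 23 fell (29.9% and 32.3% of 8382), with a median of 0.23 against -0.04. The counts of single lists that follow are at 10 times background, are small and are read against the first pair of shares. Of the G1 cyclins and kinases, which drive entry into the cycle, 2 of 3 rose and 0 fell. Ccnd1, cyclin D1, stood at 69.9 ± 3.06 in APC-WT 1, 59.4 ± 4.13 in APC-WT 2, 193 ± 29.8 in APC-KO 1 and 199.8 ± 13.5 in APC-KO 2. It rose by 2.07 ± 0.12 (SE; adjusted p = 0.00259), and Ccnd2, cyclin D2, rose by 1.48 ± 0.16 (SE; adjusted p = 0.0041). Of the Rb, E2F and DREAM genes, which control cell cycle transcription, 3 of 5 rose and 1 fell, with a median of 0.65, but at 3 times background 5 of 15 rose and 6 fell, with a median of -0.29. E2f1, an activating E2F, was at 1.10 ± 0.10 (SE; adjusted p = 0.00351), Rbbp4, a histone-binding partner, at 0.70 ± 0.12 (SE; adjusted p = 0.012) and Lin37, a DREAM subunit, at 0.65 ± 0.13 (SE; adjusted p = 0.0163). E2f4, a repressing E2F of that complex, was at -0.79 ± 0.11 (SE; adjusted p = 0.00637). Of the origin and fork proteins 2 of 8 rose, the clamp loader Rfc2 at 1.39 ± 0.13 (SE; adjusted p = 0.00352) and the ligase Lig1 at 1.17 ± 0.13 (SE; adjusted p = 0.00411), and 1 fell, the flap nuclease Fen1 at -0.63 ± 0.16 (SE; adjusted p = 0.0326). Of the genes of mitotic entry and exit 5 of 9 rose and 0 fell, the first by p being Anapc11 at 2.06 ± 0.10 (SE; adjusted p = 0.00259), Bub3 at 1.04 ± 0.12 (SE; adjusted p = 0.00449) and Pkmyt1 at 1.16 ± 0.21 (SE; adjusted p = 0.012). Pkmyt1 is a kinase that inhibits CDK1, Bub3 a checkpoint protein and Anapc11 a subunit of the anaphase-promoting complex.

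Of 11 antiproliferative genes tested 4 fell and 2 rose. Those that fell first were Ccng1, cyclin G1 of the p53 response, at -0.99 ± 0.11 (SE; adjusted p = 0.0046), the Myc antagonist Mxd1 at -1.04 ± 0.18 (SE; adjusted p = 0.0108) and Ccng2 at -0.53 ± 0.12 (SE; adjusted p = 0.0218). Those that rose were Trp53, which encodes p53, at 0.71 ± 0.18 (SE; adjusted p = 0.0306) and Mxi1, another Myc antagonist, at 0.74 ± 0.21 (SE; adjusted p = 0.0389). Of 11 chromatin and tubulin genes high in cycling cells 2 rose, Ran at 0.85 ± 0.12 (SE; adjusted p = 0.00694) and Hmgb1 at 0.92 ± 0.21 (SE; adjusted p = 0.0226), and none fell, and at 3 times background none of the 11 passed. There 5 of 10 G1 cyclins and kinases rose and none fell, 15 of 26 origin and fork genes rose and 4 fell, and 11 of 34 genes of mitotic entry and exit rose and 5 fell (29.9% and 32.3% of all genes). Of 13 antiproliferative genes 2 rose and 8 fell there. Of the 2 CDK inhibitors tested none passed. Cdkn1a, the inhibitor p21, stood at 1049 ± 38.8 in APC-WT 1, 755 ± 23.8 in APC-WT 2, 1457 ± 66 in APC-KO 1 and 1465 ± 66.9 in APC-KO 2. Its change from APC-WT to APC-KO was 0.64 ± 0.21 (SE; adjusted p = 0.0603). Cdkn1b, the inhibitor p27, stood at 13.1 ± 0.511 in APC-WT 1, 15.4 ± 1.27 in APC-WT 2, 61.9 ± 5.48 in APC-KO 1 and 63.4 ± 6.86 in APC-KO 2, with a background of 0.350, 2.52, 17.9 and 18, and was tested at 3 times background only, where it rose by 1.70 ± 0.13 (SE; adjusted p = 0.00188). Myc stood at 147 ± 6.42 in APC-WT 1, 85.7 ± 1.93 in APC-WT 2, 64.4 ± 3.32 in APC-KO 1 and 81 ± 7.77 in APC-KO 2, so its level was highest in APC-WT tumor 1, as for Mcm2, Mcm3, Mcm4, Mcm5 and Mcm6.

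More genes of the wider lists fell than rose between the APC-WT tumors, and more rose than fell between the APC-KO tumors. At 3 times background 113 of the 139 genes were tested, of which 52 fell and 14 rose between the APC-WT tumors (25.3% and 18.6% of all genes) and 27 rose and 3 fell between the APC-KO tumors (7.64% and 10.1%). Of the 34 genes of mitotic entry and exit 19 fell and 3 rose in the first pair, and 11 rose and 0 fell in the second. Of 11 chromatin and tubulin genes 10 fell and 0 rose, and then 7 rose and 0 fell. Of 10 G1 cyclins and kinases 4 fell and 2 rose between the APC-WT tumors, and 0 passed between the APC-KO tumors, where 0 of 15 Rb, E2F and DREAM genes passed too. Lmnb1, lamin B1, had the largest fall of the chromatin and tubulin genes (-0.88 ± 0.09 (SE; adjusted p = 6.1e-09)), and H2afx the largest rise (0.84 ± 0.07 (SE; adjusted p = 5.3e-10)), both named after their values were seen.

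Several further genes share sequence with others, which the authors' counting could split. The share of 31-base words found in other genes was 38% for Pcna, 28.7% for Cdc20, 25.1% for Ube2c, 24.9% for Hmgb2, 23.7% for Cks1b, 19.2% for Plk1, 17.6% for Tyms and 16.5% each for Rrm2 and Ccna2. Besides Mcm7, Ccnb1 and Stmn1, the rest were below 10%. Nusap1 overlaps Oip5 over 172 bases, Tk1 overlaps Afmid over 83 and Cdc20 overlaps Elovl1 over 53, each on the other strand.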

How the data were processed

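The members and the gene lists were chosen with earlier results of these data known. The authors deposited whole-number counts per Ensembl gene ID for 24 libraries, and the submitters' processing notes name the build mm9 and, as tools, StringTie, HISAT2 and bcl2fastq 2.20.0. Roles, strand and annotation are not given in the sources used here. Per the labels' protocols, the RNA of the sorted cells was sequenced from Nextera XT libraries made for ultra low input. Symbols, lengths and coordinates came from GENCODE M21 (GRCm38), and all 38 symbols matched an ID.

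All other values were calculated from those counts with edgeR 4.0.16, DESeq2 1.42.0 and limma 3.58.1 under R 4.3.3. The genotype was tested on tumor sums (2 against 2, quasi-likelihood, TMM over the genes tested) with a loess offset (span 0.5) on log2 transcript length. Tumors of one genotype were tested on libraries with a mean per tumor and no offset. SE was taken from the change and its F statistic (change over the root of F). Satellite-like loci (12, with 0.4 or more of their 15-mers in transcripts of Gm10800) were left out of the expressed genes. Libraries of a tumor differed by more than sampling noise (chi-square per degree of freedom of at least 6.45), so none was taken as a duplicate. The scripts were tested on simulated data. All 38 members are accounted for, with levels of each tumor, and library values for members past the threshold and Mki67, Top2a, Cdk1, Pcna and Ccnb1. Of each pathway list up to 3 genes each way with the smallest p were named, and Ccnd1, Cdkn1a, Cdkn1b and Myc always. Alternatives were other offsets, scalings, filters and tools, background subtraction and left-out tumors or libraries.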

Additional observations from a re-analysis of the deposited data

Results flagged for a closer look

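In 6 of 152 groups of 6 libraries (38 genes in 4 tumors) 1 library stood apart, its gap to the nearest library, as a share of the range of the group, being above Dixon's critical value. Chance passes that limit in about 1 in 20 groups. In APC-WT tumor 2 these were Tyms in replicate 3, low at 20.8 scaled CPM with the next at 24.3, and Ccnb1 in replicate 4, high at 32.3 with the next at 27.2. In APC-KO tumor 2 they were Bub1b in replicate 5, high at 63.9 with the next at 51.2, Cenpe in replicate 4, high at 120.3 with the next at 104, and Stmn1 in replicate 1, high at 305 with the next at 291. In APC-KO tumor 1 it was Hmgb2 in replicate 1, high at 261 with the next at 232. No library was flagged for more than 1 gene.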

How the results depend on the processing

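The shift within a genotype kept its direction under each alternative run. Leaving out each replicate number in turn gave 12 to 13 genes lower in APC-WT tumor 2 and 10 to 13 higher in APC-KO tumor 2 at 10 times background, and 29 to 31 and 21 to 25 at 3 times, with 0 the other way (23.5% to 26.5% and 13.3% to 14.4% of all genes, and 21.4% to 24.5% and 6.18% to 6.82%). The replicate numbers did not pair the libraries across all tumors, since 9 of 36 correlations of same-numbered libraries were over 0.1 (-0.50 to 0.785). Between the 2 APC-WT tumors they were 0.65, 0.66, -0.49, -0.24, 0.785 and 0.68 for replicates 1 to 6. Correlations of libraries with unlike numbers ranged from -0.85 to 0.91. With a replicate block 13 fell and 12 rose, Mcm3 no longer passing, and 32 and 25 at 3 times background (24.8% and 7.25% of all genes). Counts grew where more genes were tested, to 31 and 24 at 3 times background and, over all genes that passed the count filter, to 31 lower and 1 higher between the APC-WT tumors and 22 higher between the APC-KO tumors (4.57%, 78.8% and 1.22% of all genes).

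The genotype comparison depended more on the setting, and except where fewer tumors or more genes enter by construction the cause was not tested. Shares of all genes in the same fit and order stand in parentheses. At 10 times background there were 3 higher and 0 lower (24.9% and 24.4%), and 7 and 2 without offset (32.7% and 30.7%). There was 1 lower with an offset on exon union length (26.4%), with DESeq2 (29.3%) or with the background subtracted (23.8%). The lower genes were Mcm3 and Mcm4 without offset and Mcm4 in the other settings, and both passed the limit through the APC-WT tumors. So did Rrm2, which was lower at 10 times background with APC-KO tumor 2 left out. There were 6 higher and 5 lower at 3 times background (29.9% and 32.3%), 20 and 4 over all genes scaled to the expressed ones (59.2% and 2.75%), and 0 higher with TMM over all genes in edgeR (0%), where 35 of 38 had an unadjusted p below 0.05. Leaving out 1 tumor gave 2 to 5 higher and 0 to 2 lower (11.1% to 23.7% and 8.99% to 25.1%), and 5 to 14 and 1 to 10 at 3 times background (16.6% to 33.7% and 17.5% to 37%). Lower calls at 3 times background can include Mcm2, Rrm1, Bub1, Bub1b and Tpx2. These passed the limit through the APC-WT tumors, so such calls carry no weight as tests. At 3 times background 10 were higher with the background subtracted and no offset (30.8%), and 3 lower with it subtracted and the principal isoform offset (28.4%). Between single tumors, where p-values measure the spread between libraries, 4 were higher and 8 lower in APC-KO 1 than APC-WT 1, 8 and 3 in APC-KO 2 than APC-WT 1, 8 and 4 in APC-KO 1 than APC-WT 2, and 12 and 1 in APC-KO 2 than APC-WT 2 (39.5% to 40.5% higher and 40.4% to 41.8% lower). At 3 times background these pairs gave 7 higher and 20 lower, 15 and 13, 17 and 9, and 24 and 7 (39.1% to 40.2% and 41.1% to 43.8%). Of the 38 genes 31 had a higher mean scaled CPM in APC-KO, and 10 by CPM of all counts. On scaled CPM the median change was 0.71 for the 38 and 3.57 for all 53705 genes, and the share of all genes by CPM of all counts was not counted.

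Changes of sign in which a gene passed the threshold in the main fit or in the alternative were as follows. Pcna was at 0.47 without offset, both at 10 times background and over all genes. With TMM over all genes Birc5 was at -2.20, Tubb5 at -3.23 and Hmgb2 at -3.32. Mcm5 went from 0.25 at 10 times background to -0.61 at 3 times background with the same offset, where it did not pass. At 3 times background it was at -0.67 without offset, -0.54 with the background also subtracted and -0.87 without APC-WT tumor 2. Other values of Mcm5 with 1 tumor left out reached up to 0.49 (without APC-WT tumor 1 at 10 times background). Between single tumors at 10 times background, APC-KO 1 against APC-WT 1 gave -0.29 for Cks1b and -0.31 for Stmn1, and APC-KO 2 against APC-WT 2 gave 0.31 for Mcm6, 0.22 for Pcna and 0.31 for Ccnb2. At 3 times background APC-KO 1 against APC-WT 1 gave -0.89 for Mcm5, -0.62 for Mcm7, -0.25 for Cks1b, -0.28 for Aurkb and -0.30 for Stmn1. APC-KO 2 against APC-WT 1 gave -0.85 for Mcm5 and -0.20 for Mcm7, and Mcm5 was at -0.32 in APC-KO 1 and -0.28 in APC-KO 2 against APC-WT 2. Of the other values of single genes 935 stayed on their side of the threshold, 117 passed it newly and 47 no longer passed. Some of the 935 changed sign without passing in either fit. Pcna went from -0.06 to 0.29 with the offset on exon union length, and Mcm7 from 0.63 at 10 times to -0.15 at 3 times background. Depth above background limits the APC-KO tumors most, where Bub1 and Kif11 lay 1.54 and 1.86 times above background at the least.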
